A study of Mus musculus with 10 samples.

Results

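The genes that carry out and read retinoic acid signalling were examined for peaks of the aryl hydrocarbon receptor (AHR) in mouse colon organoids. The set comprised 10 genes, the 6 receptors *Rxra*, *Rxrb*, *Rxrg*, *Rara*, *Rarb* and *Rarg* and the 4 enzymes *Rdh10*, *Aldh1a1*, *Aldh1a2* and *Cyp26b1*. They were chosen by name and role out of 21938 protein-coding genes of GENCODE release M21, with earlier results of these data known. A peak was assigned to a gene when it overlapped the gene body or the 10 kb on either side (the gene window) by at least 1 bp. By this rule 43 of the 123652 wild type peaks and 2 of the 1931 AHR knockout (KO) peaks belonged to the set.

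Colon organoids, epithelial cultures grown from intestinal stem cells, of wild type and AHR KO genotype were kept in WENR medium, and all of them received the AHR ligand FICZ at 5 nM for 1 hour. Chromatin immunoprecipitation with sequencing (ChIP-seq) for AHR gave a ChIP and an input library for each of 4 wild type cultures, while the KO was represented by 1 ChIP and 1 input library. All 4 cultures share a single peak list, so no peak has a value per culture or a replicate error, and no test was run. The labels do not say how many cultures the KO libraries hold, although the methods describe biological replicates for organoids of either genotype. No organoids without FICZ were among the samples, and since peak lists do not show whether *Ahr* was lost, the genotype rests on the labels.

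Retinoic acid is made from vitamin A: retinol dehydrogenases such as RDH10 oxidise retinol to retinal, and aldehyde dehydrogenases of the ALDH1A family oxidise retinal to retinoic acid. Enzymes of the CYP26 family, CYP26B1 among them, break it down. Retinoic acid receptors (RAR) bind the acid and pair with retinoid X receptors (RXR) on DNA, where the pair recognises repeated copies of a short word, and in the gut the pathway is known for its part in epithelial and immune cell identity. AHR, which moves to the nucleus when a ligand binds it, pairs there with ARNT, and the pair recognises the word TNGCGTG, in which GCGTG is the core.

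Sequences of the peaks on which the description turns are given first, each as 200 bp around the midpoint of the peak (the peak window), 5′ to 3′ on the strand of the gene in GRCm38, which is the same sequence as mm10. The first group holds the peaks with the full AHR word, set in capitals on whichever strand it lies (CACGCNA is TNGCGTG read on the other strand).

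Rara intron, chr11:98932815-98933014, plus strand: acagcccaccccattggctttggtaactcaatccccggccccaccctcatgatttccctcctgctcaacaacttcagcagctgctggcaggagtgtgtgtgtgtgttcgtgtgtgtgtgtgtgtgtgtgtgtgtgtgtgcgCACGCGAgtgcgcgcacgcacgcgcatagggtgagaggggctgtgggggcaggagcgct

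Rarb intron, chr14:16658919-16659118, minus strand: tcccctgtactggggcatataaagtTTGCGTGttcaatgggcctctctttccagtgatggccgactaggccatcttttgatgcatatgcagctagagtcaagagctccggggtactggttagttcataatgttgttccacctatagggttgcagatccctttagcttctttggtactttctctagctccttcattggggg

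Aldh1a1 intron, chr19:20591678-20591877, plus strand: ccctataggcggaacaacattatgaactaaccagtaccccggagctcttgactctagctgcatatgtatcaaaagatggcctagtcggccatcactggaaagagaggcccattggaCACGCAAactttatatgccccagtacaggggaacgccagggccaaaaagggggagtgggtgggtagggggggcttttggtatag

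The second group holds the peaks at a promoter and the peak with the highest score of the set. In the *Cyp26b1* window the capitals mark the core GCGTG, and in the other windows of this group they mark the longest unbroken run of alternating C and A or T and G.

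Cyp26b1 promoter, chr6:84594096-84594295, minus strand: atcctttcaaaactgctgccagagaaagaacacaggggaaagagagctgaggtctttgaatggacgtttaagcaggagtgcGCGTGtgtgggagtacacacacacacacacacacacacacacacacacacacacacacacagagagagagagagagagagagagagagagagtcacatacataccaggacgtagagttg

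Rarb promoter of shorter transcripts, chr14:16576266-16576465, minus strand: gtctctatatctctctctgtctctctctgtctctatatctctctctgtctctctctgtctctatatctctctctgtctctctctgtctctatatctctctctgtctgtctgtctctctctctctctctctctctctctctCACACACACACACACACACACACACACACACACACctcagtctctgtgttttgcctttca

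Aldh1a1 intron, highest score, chr19:20498840-20499039, plus strand: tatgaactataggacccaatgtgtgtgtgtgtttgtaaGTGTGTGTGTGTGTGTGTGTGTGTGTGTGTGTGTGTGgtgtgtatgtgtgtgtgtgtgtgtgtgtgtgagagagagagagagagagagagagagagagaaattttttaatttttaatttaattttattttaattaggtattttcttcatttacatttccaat

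The third group was chosen after its values were seen, because it shows the window with the most cores, the window with the most CpG dinucleotides and the only peak of *Rxra*. Capitals mark the core, read as CACGC on the other strand, in the *Aldh1a2* and *Cyp26b1* windows. In the *Rxra* window they mark words of the kind that RAR and RXR recognise (AGGTCA or AGTTCA or GGGTCA or GGTTCA, on either strand), called receptor words here.

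Aldh1a2 intron, chr9:71240941-71241140, plus strand: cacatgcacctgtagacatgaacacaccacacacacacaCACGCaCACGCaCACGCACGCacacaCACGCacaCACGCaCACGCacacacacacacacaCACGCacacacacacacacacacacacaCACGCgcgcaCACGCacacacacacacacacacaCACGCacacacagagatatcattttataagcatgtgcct

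Cyp26b1 intron, chr6:84586569-84586768, minus strand: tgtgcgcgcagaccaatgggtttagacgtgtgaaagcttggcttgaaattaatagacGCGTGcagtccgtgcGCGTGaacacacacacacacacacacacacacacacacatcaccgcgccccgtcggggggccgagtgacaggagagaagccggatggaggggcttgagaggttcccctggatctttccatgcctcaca

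Rxra downstream, chr2:27770311-27770510, plus strand: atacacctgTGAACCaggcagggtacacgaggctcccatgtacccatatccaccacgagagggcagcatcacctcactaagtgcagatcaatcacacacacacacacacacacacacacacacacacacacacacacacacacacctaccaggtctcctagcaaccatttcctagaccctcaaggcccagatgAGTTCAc

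All 10 genes had a wild type peak in their gene window, where 78.3% of all protein-coding genes had one. The gene windows ran from 26.59 kb at *Rxrb* to 408.32 kb at *Rarb*, with 37.42 kb as the median over protein-coding genes, and only that of *Rxrb* was shorter than the median. Over the 1074.0 kb of the 10 gene windows the density was 4.00 peaks per 100 kb, compared with 4.53 over the windows of all protein-coding genes and 4.66 over the assembled chromosomes. The receptors held 26 of the peaks, 3 at the RXR genes and 23 at the RAR genes, and the enzymes held 17, of which 14 were at the synthesis genes. *Rarb*, the longest gene, held 16 peaks alone, or 3.92 per 100 kb. The densest window was that of *Rarg* at 9.39 per 100 kb and the sparsest that of *Rxra* at 0.939. Since the list joins all cultures, these counts have no error from replicates.

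**Figure D1:**
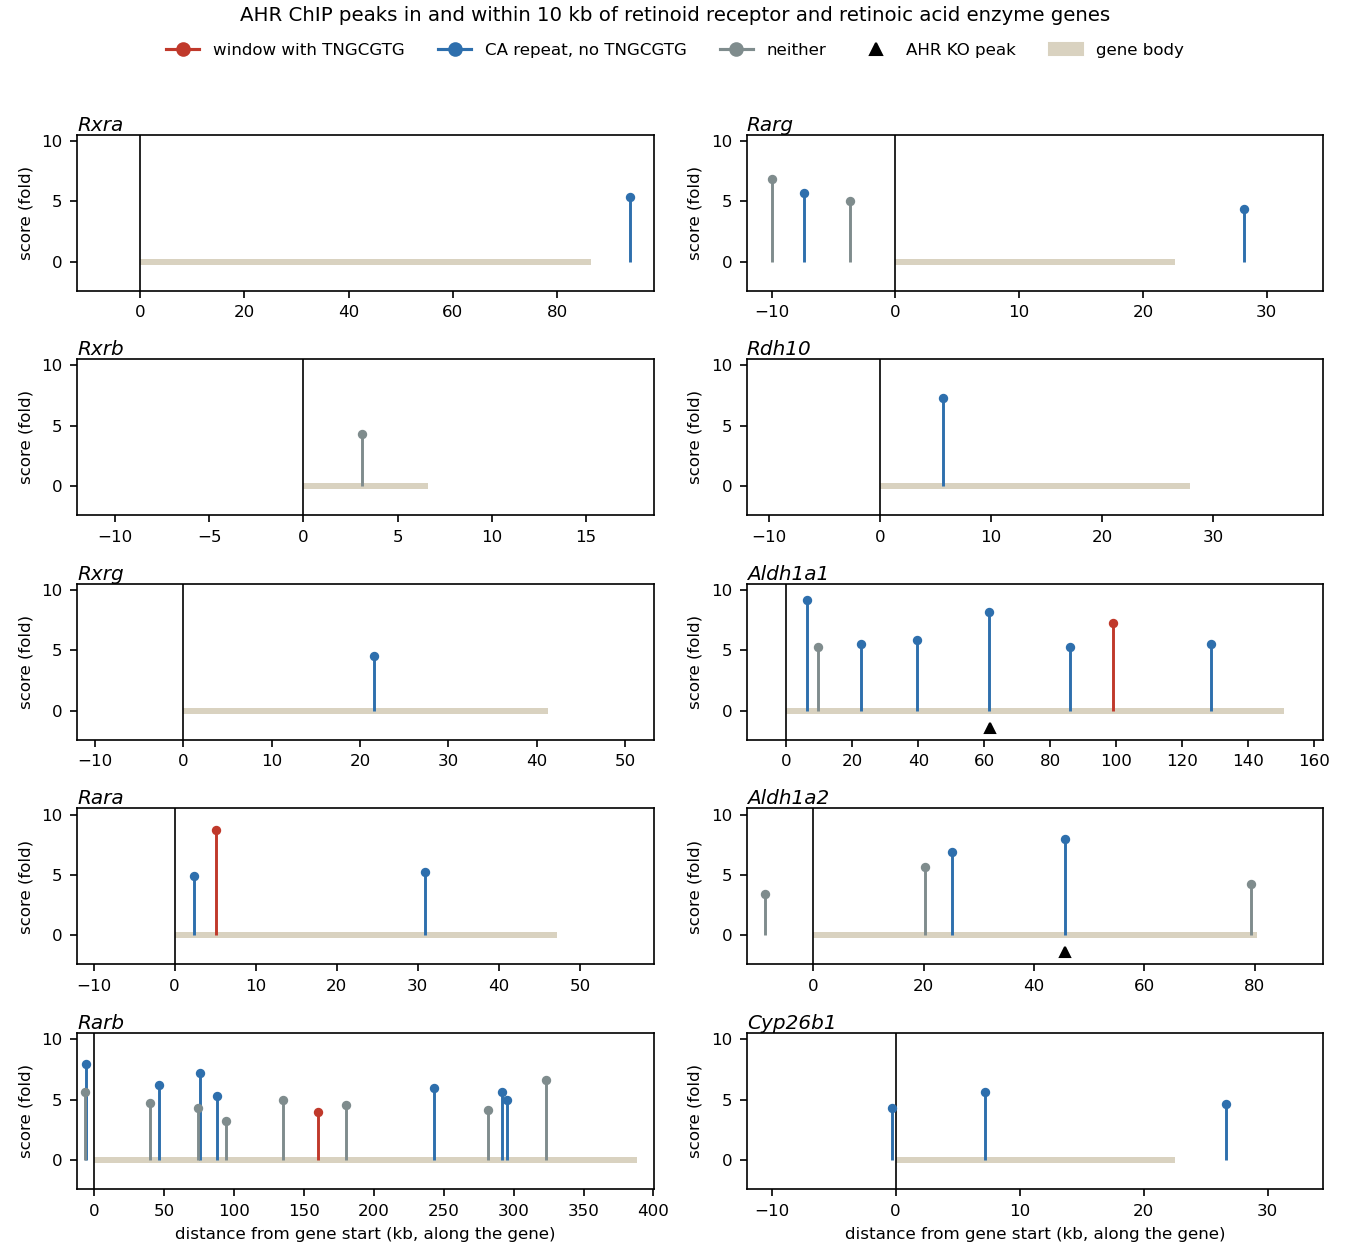
Position of every wild type peak relative to the annotated start of its gene (kb, along the direction of the gene), with the height of each stem giving the score as fold enrichment, 0 at the gene body bar. Red stems are windows with TNGCGTG, blue stems CA repeats without it, grey stems neither, and the black triangles below the genes are the 2 AHR KO peaks. *Rarb* carries 16 peaks spread over its length, while *Rxra*, *Rxrb*, *Rxrg* and *Rdh10* carry 1 each.

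Of the 43 peaks, 33 (76.7%) lay in an intron, 7 (16.3%) upstream and 3 (6.98%) downstream of the gene. Over the windows of all protein-coding genes, with a peak counted once for each gene, these shares were 66.7%, 16.8% and 15.1%. Peaks that overlapped an annotated exon of their gene were 0 of 43, which allows a share of up to 6.98%, against 2.90% over all those windows. Peaks were 180 to 1011 bp wide with a median of 229 bp, against 227.0 bp in the whole list. The score, read from its values as a fold enrichment of ChIP fragments over the expected background, ran from 3.22 to 9.21 with a median of 5.32. The median of the list was also 5.32, and its quartiles were 4.53 and 5.98 against 4.62 and 6.45 for the set. Scores in the top 10% of the list were found at 8 of the 43 peaks (18.6%, 95% Wilson interval 9.74 to 32.6), where the list has 10.0% by construction. Those 8 peaks belonged to *Rara*, *Rarb*, *Rdh10*, *Aldh1a1* and *Aldh1a2*. Wilson intervals here cover counting error only, and beside a count of 0 the limit given is not a Wilson bound but the share that 3 counts would make. On that reading, the scores of 19 peaks (44.2%, against 51.7% of the list) came to a whole number of fragments, within a tolerance of 2e-05 in the score. These were 12 to 23 fragments with a median of 15, over an inferred background of 2.01.

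The AHR word TNGCGTG stood in 3 of the 43 windows (6.98%, interval 2.40 to 18.6), compared with 2.84% of all wild type windows. Its core GCGTG stood in 11 (25.6%, interval 14.9 to 40.2), against 17.7% of the list. A CA repeat, meaning CACACA or TGTGTG found 3 or more times without overlap, was present in 26 windows (60.5%, interval 45.6 to 73.6), and 57.3% of the list were CA repeats. Soft-masking, the lower-case marking of repeats in the reference genome, covered 50% or more of 34 windows (79.1%, interval 64.8 to 88.6) against 86.0% of the list. The median window was 95.0% masked, against 86.5% in the list. Of the 43 windows 18 were masked throughout, as were 36.5% of the list, and 1 was under 25% masked (2.33%, interval 0.412 to 12.1), compared with 0.454% of the list. Each of these intervals contained the value of the list.

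The AP-1 word (TGACTCA or TGAGTCA) was found in 1 window, at *Cyp26b1*, and the TEAD word GGAATG in 2, both at *Rarb*. Those are shares of 2.33% and 4.65%, beside 1.28% and 7.24% of the list. Receptor words stood in 11 windows (25.6%, interval 14.9 to 40.2) against 24.4% of the list. Direct repeats of them, spaced by 1, 2 or 5 bases as RAR and RXR pairs can use, were in 0 of 43 windows, which allows a share of up to 6.98%, and in 0.143% of the list.

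**Figure D2:**
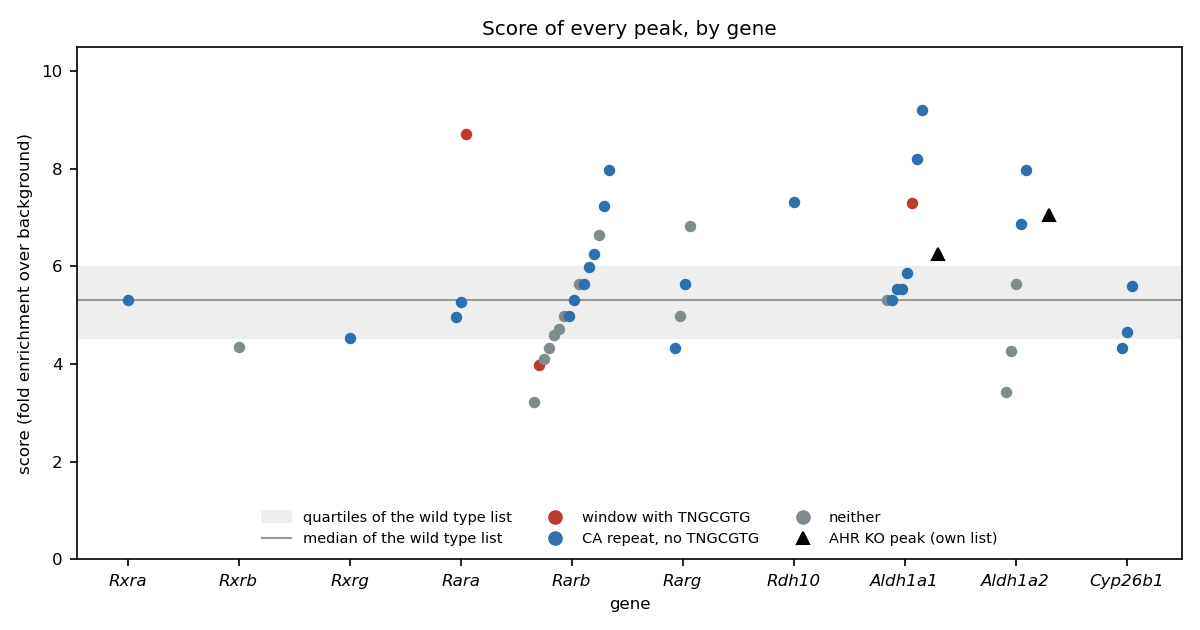
Score (fold enrichment over background) of each wild type peak by gene, sorted within a gene, with the quartiles (grey band) and median (line) of the whole wild type list, and the AHR KO peaks of the set as black triangles on the scale of their own list. The peaks run from 3.22 to 9.21 and spread to either side of the median of 5.32, and *Rara*, *Rarb*, *Rdh10*, *Aldh1a1* and *Aldh1a2* reach the top 10% of scores.

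The RXR genes, whose products are the shared partners of RAR and of many other nuclear receptors, held 1 peak each, and no score of these was above the median of the list. At *Rxra* (chr2:27676440-27762957, plus strand) the peak at chr2:27770281-27770541 had a score of 5.32, equal to a pileup of 15 fragments. Its midpoint was 93971 bp from the gene start, and the peak began past the annotated end, with the midpoint 7454 bp beyond it. The window held a CA run of 53 bp, the longest of the set, was 34.0% masked, and contained no core but 2 receptor words, 1 towards each edge.

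At *Rxrb* (chr17:34031812-34038399, plus strand) the peak at chr17:34034798-34034985 had a score of 4.34. It lay in an intron 3079 bp from the start, held 1 core and no CA repeat, and was 69.5% masked. *Rxrg* (chr1:167598384-167639623, plus strand) had an intronic peak at chr1:167619829-167620034, with a score of 4.53 at 21547 bp from the start, a CA run of 38 bp and 45.0% of the window masked. These genes differed in how many AHR words their windows offered: 15 at *Rxra*, 7 at *Rxrb* and 6 at *Rxrg*, of which 0 lay in a peak.

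The RAR genes encode the receptors that bind retinoic acid itself. *Rara* (chr11:98927818-98974942, plus strand) held 3 peaks, all intronic CA repeats. The highest, at chr11:98932771-98933059, scored 8.72 (rank 3388, above 97.2% of the list) and lay at +5097 bp from the gene start and -4783 bp from the nearest annotated transcript start. Its window held the AHR word, 3 cores and 11 CpG, had the highest GC content of the set at 61.0%, and was 43.0% masked. The word, printed above as CACGCGA, lay 44 bp from the midpoint and 2 bp from a run of 31 bp of TG, and all 7 of its bases were soft-masked.

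The other *Rara* peaks had no core. At chr11:98930121-98930300 the score was 4.96, at 2392 bp from the start, with a CA run of 42 bp and 65.5% masked. The third, at chr11:98958585-98958772, scored 5.27 at 30860 bp from the start, with a CA run of 38 bp, 1 receptor word and 95.5% masked. The peak with the AHR word thus had the highest score of the gene, although 1 list gives no error for the difference.

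*Rarb* (chr14:16430839-16819156, minus strand), itself a classical target of retinoic acid, held 16 peaks, with scores from 3.22 to 7.97 and a median of 5.15. Of these, 7 were CA repeats and 14 were at least 50% masked. The highest score, 7.97 or 23 fragments, was at chr14:16824578-16824813, at -5539 bp from the gene start, with a CA run of 25 bp, 2 receptor words and 81.0% masked. About a kb further upstream, at -6845 bp, chr14:16825786-16826216 scored 5.65 and was 100% masked, with no CA repeat and a tandem run of TCTCTG of 23 bp.

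A peak at chr14:16576248-16576484 was at a promoter, here the stretch from 1 kb upstream to 100 bp downstream of any annotated transcript start. Its score was 5.98 (17 fragments), and its midpoint lay 242790 bp inside the gene and at -539 bp from the start of a shorter transcript. The window held no core, a CA run of 35 bp beside a long CT-rich stretch, and was 91.5% masked. The RefSeq start of this shorter form carries a pair of receptor words spaced by 5 bases, from -53 to -37, which is set in capitals in the 250 bp before that start as given by RefSeq (GRCm38.p6), shown because it was the only such pair found in the promoters of the set.

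Rarb promoter from RefSeq, chr14:16575477-16575726, minus strand: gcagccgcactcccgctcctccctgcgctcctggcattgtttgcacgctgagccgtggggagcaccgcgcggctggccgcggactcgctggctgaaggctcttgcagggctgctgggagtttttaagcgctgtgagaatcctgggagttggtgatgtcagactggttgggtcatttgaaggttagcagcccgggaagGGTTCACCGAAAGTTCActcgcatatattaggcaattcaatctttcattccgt

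The nearest wild type midpoint lay at -890 bp from that start, and no wild type peak touched the printed stretch. Pairs spaced by 5 bases, read on either strand, were found in 32 of 32851 RefSeq promoters of 300 bases (0.0974%).

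The remaining CA repeats of *Rarb* were intronic. Those in its first 100 kb, counted from the start, were 3: chr14:16772563-16772795 (score 6.25, +46477 bp, 1 core, run of 32 bp, 94.5% masked), chr14:16742988-16743332 (score 7.23, +75996 bp, run of 36 bp, 100% masked) and chr14:16731210-16731391 (score 5.32, +87856 bp, run of 45 bp, 49.5% masked). Towards the end of the gene lay chr14:16527072-16527435 (score 5.65, +291903 bp, run of 15 bp, 45.0% masked) and chr14:16523741-16523920 (score 4.98, +295326 bp, run of 36 bp, 50.5% masked). The window at +46477 bp was the only *Rarb* window to hold a core apart from that with the full AHR word.

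The other *Rarb* introns with a peak were fully masked and held no CA repeat. The AHR word was in chr14:16658906-16659132, with a score of 3.98 that was above only 11.4% of the list, at 160137 bp from the start and with the word at -72 bp from the midpoint. The lowest score of the whole set, 3.22, belonged to chr14:16724839-16725088 at +94193 bp, and chr14:16638763-16638949 (+180300 bp) and chr14:16744584-16744877 (+74426 bp) scored 4.59 and 4.32. All of these were copies of a repeated sequence described further on.

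In 3 of the last 4 windows the longest tandem run was of another kind. A run of 31 T lay in chr14:16495770-16495951, which scored 6.65 at +323296 bp and had the lowest GC content of the set at 26.5%. A run of 56 bp of TC lay in chr14:16537269-16537467 (score 4.10, +281788 bp), and a run of 57 bp of CCTT in chr14:16684018-16684255 (score 4.98, +135020 bp). In chr14:16778924-16779131 (score 4.71, +40129 bp) the longest tandem run was only 9 bp, of ATGG, and the window held the TEAD word.

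*Rarg* (chr15:102234938-102257517, minus strand) held 4 peaks and none in its body. Upstream, chr15:102260975-102261331 scored 4.98 at -3636 bp, chr15:102264783-102265023 scored 5.65 at -7386 bp, and chr15:102267356-102267570 scored 6.84 at -9946 bp, just inside the 10 kb limit. The last and the middle of these held 1 core each, and the masked shares of the 3 windows were 100%, 90.0% and 96.5%. The middle window was also a CA repeat, with a longest run of 19 bp. Downstream, chr15:102229241-102229420 scored 4.32 with a CA run of 27 bp and 95.0% masked. That peak lay within the integrin gene *Itgb7*, with its midpoint 5608 bp past the end of *Rarg*.

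The synthesis enzymes held the highest score of the set. *Rdh10* (chr1:16105774-16133734, plus strand) had 1 peak, chr1:16111345-16111607, in an intron 5702 bp from the start, with a score of 7.33 that was above 92.1% of the list. It was a CA repeat broken into short runs, the longest 18 bp, with no core and 66.5% masked.

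*Aldh1a1* (chr19:20492715-20643465, plus strand) held 8 peaks, all in introns, and 6 of them were CA repeats. The highest score of the set, 9.21 (rank 2507, above 97.9% of the list), was at chr19:20498744-20499135, 6224 bp from the start. Its window was 100% masked, with a TG run of 37 bp, 1 receptor word and no core. Next in order came chr19:20553680-20554690, at 61470 bp, with a score of 8.21 and a width of 1011 bp, the widest of the set, 100% masked and without a core. The AHR word was in chr19:20591652-20591904, at 99063 bp from the start, which scored 7.31, was 100% masked and held no CA repeat, with the word 19 bp from the midpoint.

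The 5 lower *Aldh1a1* peaks scored between 5.32 and 5.86 and held no core. Of these, chr19:20532088-20532298 (score 5.86, +39478 bp, run of 40 bp) was 33.0% masked, and chr19:20578458-20578642 (score 5.32, +85835 bp, run of 29 bp) was 23.0% masked, the least of the set. Both chr19:20515279-20515466 (+22657 bp, run of 35 bp, 75.5% masked) and chr19:20621145-20621340 (+128527 bp, run of 43 bp, 68.5% masked) scored 5.54. Without a CA repeat, chr19:20502174-20502403 scored 5.32 at +9573 bp and was 100% masked.

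*Aldh1a2* (chr9:71215789-71296243, plus strand) held 5 peaks. The highest, chr9:71261340-71261671, scored 7.97 (23 fragments) in an intron 45716 bp from the start, with a CA run of 34 bp and 100% masked. The core occurred 11 times in chr9:71240893-71241189, the most of any window of the set, although the full AHR word did not occur. That peak scored 6.87 at +25252 bp, with 13 CpG, and its cores, printed above, lay within a CA repeat in which C is followed by G at intervals.

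The others at *Aldh1a2* held no CA repeat. In an intron at +20326 bp, chr9:71236014-71236217 scored 5.65, with 1 core and 97.5% masked. Near the end of the gene, chr9:71294945-71295294 scored 4.27 at +79330 bp and was 100% masked, with a tandem run of CTTCTC of 92 bp. The upstream peak chr9:71206940-71207167 scored 3.44 at -8736 bp and was 100% masked.

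*Cyp26b1* (chr6:84571414-84593908, minus strand), which encodes the enzyme that breaks retinoic acid down, held 3 peaks, all CA repeats. Its promoter peak, chr6:84594094-84594297, was the only peak of the set at the main start of a gene, with the midpoint at -287 bp. The score was 4.32, or 12 fragments, which was above 18.3% of the list, and the window held 1 core 9 bp from a CA run of 47 bp and was 46.0% masked. In an intron at +7239 bp, chr6:84586555-84586783 scored 5.59 and held 2 cores and 14 CpG, the most of the set, with a CA run of 33 bp and 29.5% masked. Beyond the gene, with the midpoint 4141 bp past its end, chr6:84567184-84567363 scored 4.65 with a CA run of 45 bp, the AP-1 word and 51.5% masked.

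Promoter peaks were thus found at 2 of the 10 genes, *Rarb* and *Cyp26b1*, where 10.7% of all protein-coding genes had one. The count depends on the definition, since with a promoter of 2 kb on either side of a start it was 5 of 10. The RefSeq promoter table, which covers 250 bases before to 50 after a start, had 17 promoters for 9 of the genes and none for *Rdh10*. A wild type peak touched 0 of these 17, which allows a share of up to 17.6%, and 0.962% of all RefSeq promoters. The AHR word stood in 2 of the 17, both of *Rara*, and the core in 7 from 5 genes, beside 5.07% and 32.4% of all 32851 promoters.

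The AHR KO list was used as the control for signal that does not need AHR. It had a peak at 2 of the 10 genes, *Aldh1a1* and *Aldh1a2*, and at 4.47% of all protein-coding genes. The shares are not for windows of like length: those of the 2 genes were 170.75 and 100.45 kb, against a median of 37.42 kb. At *Aldh1a1* the AHR KO peak chr19:20554081-20554528 had a score of 6.25 (rank 1223 of its list) and lay wholly within the wild type peak of 1011 bp. At *Aldh1a2* the AHR KO peak chr9:71261346-71261629 scored 7.06 (rank 734) and lay wholly within the wild type peak with the highest score of that gene. Both were intronic CA repeats with no core, 93.0% and 100% masked, with runs of 28 and 34 bp. Hence 2 of the 43 wild type peaks (4.65%, interval 1.28 to 15.5) overlapped an AHR KO peak, compared with 1.46% of the list, and none of the 3 with the AHR word did. This share rests on few peaks: it was 2.33% (1 of 43) when a reciprocal overlap of 50% was asked for, and 7.41% (2 of 27) with *Rarb* left out. The background inferred from the scores was 2.01 fragments for the wild type list and 0.287 for the KO list, so for the other 41 peaks lower depth and the absence of AHR cannot be told apart.

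**Figure D3:**
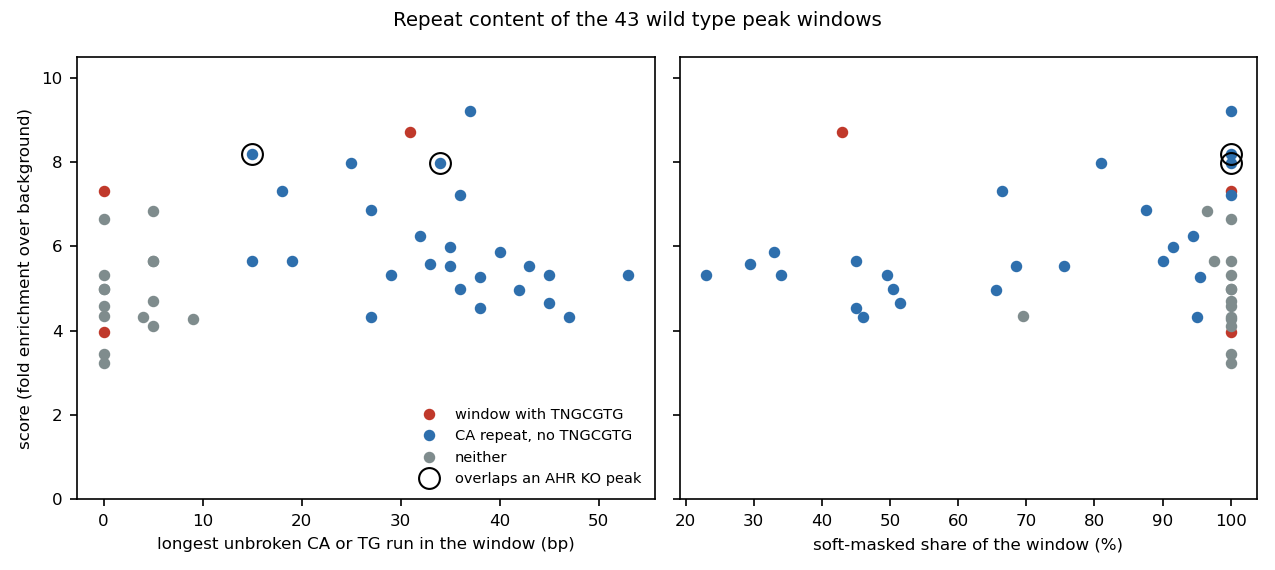
Score (fold enrichment over background) of the 43 wild type peaks against the longest unbroken CA or TG run in the 200 bp window (left, bp) and the soft-masked share of the window (right, %). Circled points overlap an AHR KO peak. The longest run, 53 bp at *Rxra*, has a score of 5.32, while the highest score, 9.21 at *Aldh1a1*, has a run of 37 bp. Both circled windows are 100% masked.

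Scores were read by class of window. The 26 CA repeats had scores from 4.32 to 9.21 with a median of 5.62, and the list's CA repeats had a median of 5.65. The 17 windows without a CA repeat ran from 3.22 to 7.31 with a median of 4.71, against 4.65 in the list. The classes therefore stood in the same order as in the list, and their ranges overlapped. The scores of the 3 peaks with the AHR word, 8.72, 7.31 and 3.98, spanned most of the range of the set.

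Words and repeats that were left without a peak were counted as well. The 10 gene windows held 109 AHR words, and 3 of these (2.75%) lay in a wild type peak, where 2.68% of the 181198 words on the assembled chromosomes did. *Rarb* held 37 words with 1 in a peak, *Aldh1a1* 12 with 1 and *Rara* 9 with 1. The windows of *Rxra*, *Rxrb*, *Rxrg*, *Rarg*, *Rdh10*, *Aldh1a2* and *Cyp26b1* held 4 to 15 words each and none in a peak. CA runs of at least 20 bp numbered 118, and 34 of them (28.8%) touched a peak, compared with 31.0% of the runs on the assembled chromosomes. At *Aldh1a1* this was 11 of 19 runs, at *Rxra* 1 of 10 and at *Rdh10* 0 of 5. Neither share of the set departed far from that of the genome.

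**Figure D4:**
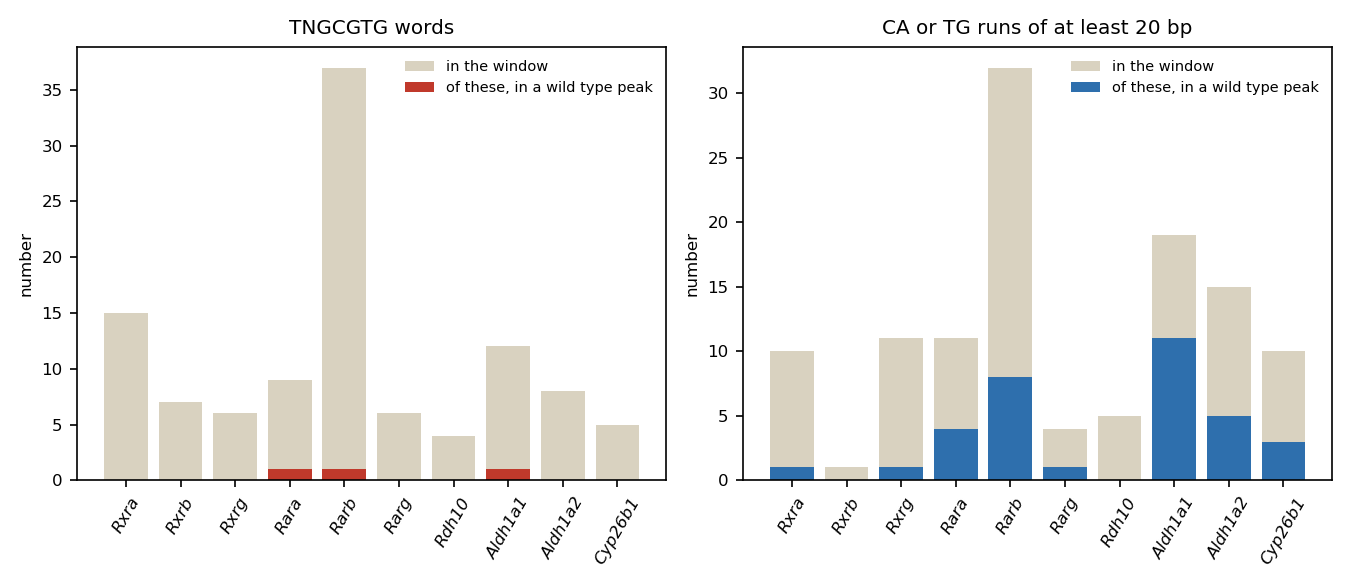
Number of TNGCGTG words (left) and of CA or TG runs of at least 20 bp (right) in each gene window, with the coloured part lying in, or touching, a wild type peak. In all, 3 of 109 words and 34 of 118 runs are in peaks. *Rarb* has the most words (37) and runs (32) in its window, and *Aldh1a1* the most runs in peaks (11).

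Most of the windows without a CA repeat were copies of repeated sequence that the members share. Windows were joined when they shared an identical stretch of 20 bp with at least 12 different triplets of bases, which leaves simple repeats out. Of the 43 windows 13 fell into 2 such groups, including 11 of the 17 without a CA repeat. The first group had 7 windows at 4 genes, namely those of all 4 *Rarg* peaks, *Rxrb*, the *Aldh1a1* peak at +9573 bp and the *Aldh1a2* peak at +20326 bp. Their scores were 4.32 to 6.84, 4 of them held the core and none the full AHR word. The stretch shared by most of them had 45626 exact copies on the assembled chromosomes, of which 3900 (8.55%) lay in a wild type peak and 2 in an AHR KO peak.

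The second group had 6 windows at 3 genes, and both AHR words outside *Rara* belonged to it. These were the 4 fully masked *Rarb* intron windows named above, the *Aldh1a1* window with the AHR word and the upstream *Aldh1a2* window. Aligned with the *Aldh1a1* window, the *Rarb* window with the AHR word was 98.0% identical over 148 columns, and 3 columns differed. At the place of the word, read on the strand of the repeat that carries it, both had TTGCGTG, with scores of 7.31 at *Aldh1a1* and 3.98 at *Rarb*. The other copies had TTGCCTG (*Rarb*, score 4.59), TTGCATG (*Rarb*, 3.22) and TTGCAAG (*Rarb*, 4.32, and *Aldh1a2*, 3.44), with identities of 80.8% to 97.0% to the *Aldh1a1* window. Each of the 6 windows also held 1 receptor word, so that they made up 6 of the 11 windows with such a word. A stretch of 20 bp shared by 5 of them had 50389 exact copies, of which 9983 (19.8%) lay in a wild type peak and 7 in an AHR KO peak. The handling of reads with several equally good positions is not given in the sources used here, and its part in these peaks was not tested.

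Other genes of the pathway, 35 in number, were taken from a list made by role, and all were found in the annotation. Of these 32 had a wild type peak, where 78.3% of protein-coding genes had one. Counted once for each gene, as over the windows of all protein-coding genes, there were 106 peaks or 4.67 per 100 kb. Some were counted more than once, where gene windows overlapped. The density was 4.00 for the set, 4.53 over the windows of protein-coding genes and 4.66 over the assembled chromosomes. A peak was present at 7 of 9 genes of transport, storage and uptake, at 13 of 14 enzymes of retinol, retinal and carotene, at both other enzymes of the CYP26 family, at all 6 co-regulators of the receptors and at all 4 retinoic acid responsive genes. *Rbp2*, *Rbp4* and *Rdh14* had none. CA repeats made up 68 of the 106, counted in the same way, where 57.3% of the whole list were CA repeats. The AHR word was found in 0 of the 106, and in 2.84% of the whole list, where each peak was counted once. By 3 counts, 106 different peaks would allow a share of up to 2.83%. Shared peaks make the number of different peaks smaller and that limit higher.

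Among the highest scores in that list were 11.96 at the co-activator gene *Ncoa2*, 10.3 at the homeobox gene *Cdx1*, 9.73 at *Crabp1*, which encodes a retinoic acid binding protein, and 9.72 at *Dhrs3*, whose product reduces retinal. All 4 of these peaks were CA repeats. *Crabp1* and *Dhrs3* were also the only genes of the list with an AHR KO peak, and the AHR KO peak overlapped the highest wild type peak in both. The *Dhrs3* window held 16 cores, again without the full word, and was 100% masked. Promoter peaks were seen at 6 of the 35 genes, where 10.7% of all protein-coding genes had one. Their scores were 4.93 at *Rbp7* (-547 bp), 5.65 at *Stra6* (+64221 bp), 6.65 at *Lrat* (-914 bp), 4.98 at *Ncoa2* (+73633 bp), 3.99 at *Ncor1* (+112792 bp) and 6.65 at *Tgm2* (-170 bp). Those at *Stra6*, *Ncoa2* and *Ncor1* lay in an intron, at the start of another transcript of the gene. None of the 6 was a TNGCGTG window.

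**Figure D5:**
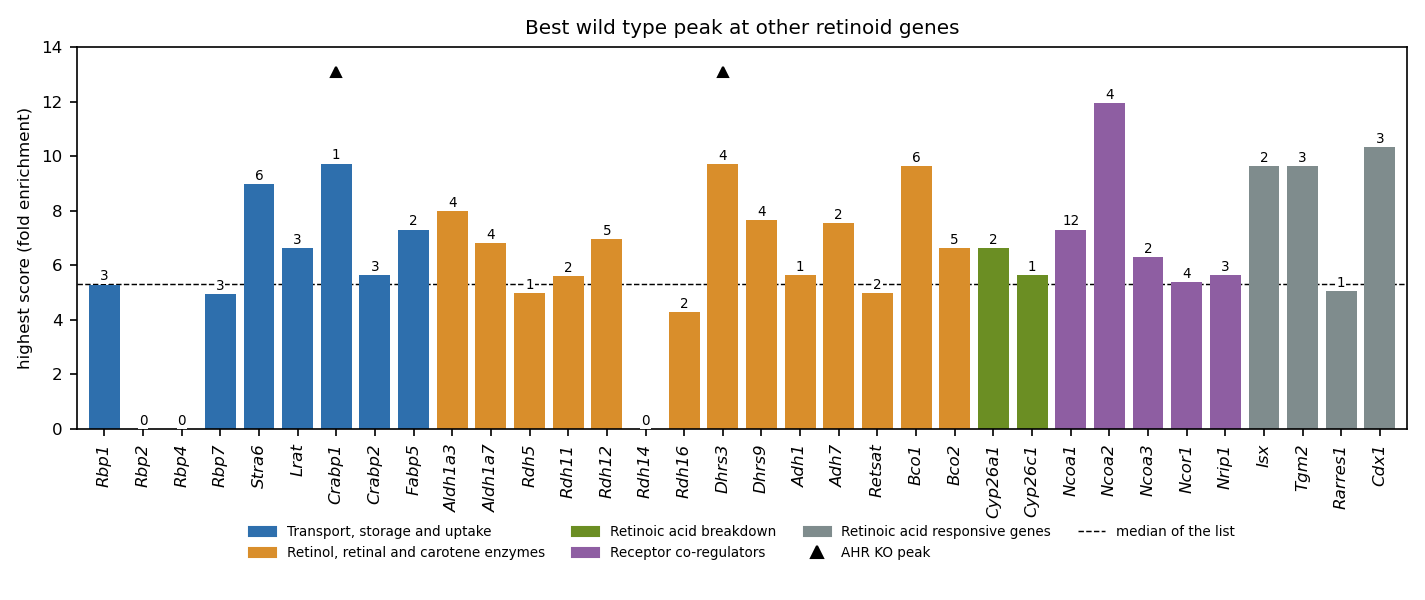
Highest wild type score (fold enrichment) at the other retinoid genes, 1 of the 35 left out, coloured by role, with the number of wild type peaks above each bar, the median of the list as a dashed line and a triangle above the genes with an AHR KO peak. *Ncoa2* reaches 11.96, *Rbp2*, *Rbp4* and *Rdh14* have no peak, and the triangles stand at *Crabp1* and *Dhrs3*.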

How the data were processed

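The authors aligned single-end reads to mm10 with BWA 0.7.15, marked duplicates with Picard 2.1.1, called peaks with MACS2 2.1.1 in its standard settings, ChIP against input, and annotated them with HOMER 4.8. The deposited values are 2 peak lists, 1 pooled over wild type and 1 for the AHR KO, and give each peak a score. The score column deposited by the authors has no header and was read as a ratio, the fold enrichment of pileup plus 1 over background plus 1, because 63809 wild type and 333 AHR KO scores are whole multiples of a fixed step. Fragment counts and backgrounds rest on that reading. Scores were not compared between lists, and read totals per library were not analysed here. Starts were taken as counted from 0, so 1 was added, and distances run from gene start to peak midpoint. Words were counted on both strands of GRCm38 in 200 bp around the midpoint, so the shares leave out peaks off the assembled chromosomes (286 in wild type, 58 in the KO). Values were computed with Python 3.11.15, numpy 2.4.6 and scipy 1.17.1, and 6 of 6 checks on simulated data passed. Members, gene lists and alternatives were chosen with earlier results of these data known. All peaks of the members are named. Other retinoid genes are named when they had an AHR KO peak, TNGCGTG, a promoter peak, no peak, or a score among the 5 highest, and 1 of these genes is not reported here.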

Additional observations from a re-analysis of the deposited data

How the results depend on the processing

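Of 43 values under other settings, 36 stayed within the limits set and 7 moved. Widening the gene windows to 50 kb on either side gave 82 wild type and 4 AHR KO peaks. Keeping the top 10% of scores left 8 peaks at 5 of the genes, and 14 of the other retinoid genes with a peak. Counting the core alone in place of TNGCGTG gave 25.6%, and a promoter of 2 kb on either side gave 5 genes. The wider windows and promoters take in more bases, the score limit keeps fewer peaks, and the core is part of the longer word, so these moved by construction. The limits were a factor of 1.5 for counts, the interval of the main share for shares and the quartiles for the median score. Among values inside them, the gene body alone gave 33 peaks at 8 genes, and a reciprocal overlap of 50% with an AHR KO peak left 1 of 43 peaks (2.33%) in place of 2 (4.65%). Leaving out *Rarb* and asking for CA runs of at least 30 bp were chosen after the data were seen. Without *Rarb*, 70.4% of 27 windows were CA repeats, 7.41% held TNGCGTG and 7.41% overlapped an AHR KO peak.

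No paired analysis was possible because each genotype is given as 1 peak list. Leaving out each culture was not run for the same reason. The intervals of the shares treat the 43 peaks as separate draws. However, 16 of the peaks lay at *Rarb*, and 13 of the windows were copies of shared repeated sequence. The shares are therefore known no better than to within the widths of their intervals.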
